A study of Quercus robur with 6 samples.

Results

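miR159 and miR319 are related plant microRNAs (miRNAs), short RNAs that guide the cutting of messenger RNAs with a nearly complementary site. They were examined here by degradome sequencing, which captures cut RNAs by sequencing from their uncapped 5′ ends, in roots of pedunculate oak (Quercus robur). The members were all rows named qrb-miR159 or qrb-miR319 in the tables of 6 libraries, 3 from control plants and 3 from plants under drought stress. They comprised 15 of 231 calls and 7 of 89 sites, where a site is a transcript with a slice position, the base at which the cut fragment begins. Of these sites, 3 were listed with miR159 and 4 with miR319.

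All plants were wild-type seedlings, acclimatised for 8 weeks with full watering, and each library combined tips of the taproot and of lateral roots, with 10 to 15 tips in a replicate per the design text. Control plants stayed on full irrigation. Drought plants had their soil moisture lowered to 25% of the control level for 4 weeks. The study grew seedlings in containers, moved to rhizotrons after 1 year, and also seedlings sown directly in rhizotrons. The library titles do not tell which kind a library came from, so cultivation method and library cannot be separated. The tables hold no expression values, so the tissue label could not be checked against marker genes.

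In Arabidopsis, miR159 mainly guides the cutting of mRNAs for GAMYB-type MYB transcription factors, regulators of gibberellin responses, anther development and, in roots, cell number in the meristem. miR319 mainly guides the cutting of mRNAs for a class of TCP transcription factors, which restrain cell proliferation in growing leaves. Both miRNAs are thought to derive from a common ancestor, and because their sequences are alike, miR319 can also pair with some targets of miR159.

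The sequences are shown because the question of shared or separate targets turns on them. In the miRNAs, capitals mark the seed, bases 2 to 8 from the 5′ end.

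miR159: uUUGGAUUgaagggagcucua

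miR319: uUGGACUGaagggagcuccc

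miR159 had 21 bases and miR319 had 20. Aligned from the first base they had 8 of 20 bases in common. With miR319 moved by 1 base, so that its first base lay beside the second of miR159, they had 17 of 20 in common (85%). The 3 differences, with positions counted from 1 at the 5′ end of miR159 and the miR159 base first, were U7C, U20C and A21C. The seeds as counted from each 5′ end were therefore not the same, although the underlying stretch differed at 1 base.

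The target sites follow, 5′ to 3′, with capitals marking bases left unpaired in the deposited duplex. The slice position lies opposite base 10 of the miRNA.

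miR159 site on Qrob_T0642710.2, bases 956 to 976: uggagcucccuucaCuccaaU

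miR159 site on Qrob_T0122500.2, bases 959 to 979: uggagcucccuucaCuccaaU

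miR159 site on Qrob_T0657660.2, bases 1107 to 1127: uggagcCcccuucaaAccaaa

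miR319 site on Qrob_T0642710.2, bases 956 to 975: UggagcucccuucaCuccaa

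miR319 site on Qrob_T0004310.2, bases 2384 to 2413: gggCgcuGCAACGGGGAcccuucaguccaa

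miR319 site on Qrob_T0010200.2, bases 638 to 657: UggagcucucuucagCAcUG

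miR319 site on Qrob_T0690090.2, bases 943 to 963: gggagcucuAUuucagGccaa

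Positions count from the first base of each transcript in the longest-transcript set of the PM1N assembly. Where the transcripts lie in the genome, and whether the sites are coding or in a UTR, was not analysed here. Only Qrob_T0657660.2 had a description in the sources used, "cell number regulator 6-like", from the supplementary gene tables of the study. In maize, cell number regulators are membrane proteins that affect organ size. The other 5 transcripts are given by their identifiers alone.

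As listed, the miRNAs were mostly assigned separate transcripts. miR159 was listed on 3 transcripts and miR319 on 4, and 1 transcript, Qrob_T0642710.2, carried both. On it the sites lay in the same stretch of RNA. The miR319 slice position, 966, was 1 base before the miR159 slice position, which equals the offset of the miRNAs in the alignment. The transcripts listed with miR319 alone had weak alignments. Their Allen scores, a mismatch penalty that is 0 for a perfect match, were 7, 9 and 11, against 3 for miR319 on Qrob_T0642710.2. Qrob_T0122500.2, listed with miR159 alone, holds the same target sequence as Qrob_T0642710.2. The separation by transcript thus rests in part on weak miR319 calls. A transcript also called with another miRNA name held 1 of 3 miR159 sites and 1 of 4 miR319 sites. The same held for 4 of the 82 sites of other names (4.88%) and for 6.74% of all sites, so separate transcripts were the usual case. Of the 82 sites of other miRNA names, 2 had a site of another name within 1 base on the same transcript (2.44%).

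The miR159 site on Qrob_T0642710.2 was listed in all 6 libraries, as were 18.0% of all sites. Evidence is graded by category, from 0, a slice position with more reads than any other on the transcript, through 1, where that maximum is shared, and 2, below the maximum but above the transcript's average, to 3, at or below the average, and 4, a single read. The site was in category 2 in control replicate 1, 0 in control replicate 2 and 0 in control replicate 3. It was in category 2 in drought replicates 1, 2 and 3. Category 0 was thus seen in 2 libraries, both of them control, and the conditions overlapped through control replicate 1.

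The category averaged 0.667 ± 1.15 over the control libraries (SD, n = 3) and 2.00 ± 0 over the drought libraries (SD, n = 3). The difference of 1.33, towards weaker evidence under drought, was no larger than other groupings of the libraries gave (two-sided exact permutation test, p = 0.4). That is the smallest p these tied values can give, and 0.1 is the smallest without ties at 3 libraries per condition. Without control replicate 1 the difference was 2 (exact permutation test, p = 0.1, the smallest possible). The analysis runs of the control libraries and of drought replicate 1 were made on one day and those of drought replicates 2 and 3 on another. Among the 4 libraries of the first day, with 1 drought library, the difference was 1.33. It could not change, since all drought libraries were in category 2, so it says nothing about the run day.

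**Figure D1:**
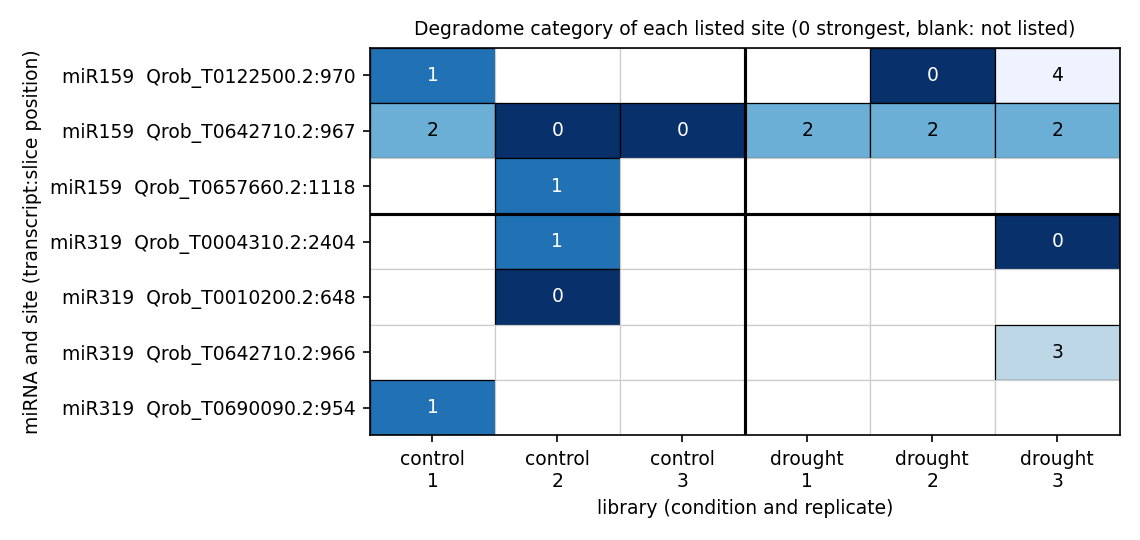
Degradome category of the 7 sites (rows) in the 3 control and 3 drought libraries (columns), with the category as a number and blank cells where a site was not listed. The miR159 site on Qrob_T0642710.2 fills its row, in category 0 in control replicates 2 and 3 and in category 2 elsewhere, while the 4 miR319 sites hold 5 filled cells.

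The deposited p-value of this site is the chance that a position of its category falls on an alignment of its rank or better, so it combines category and rank. In Qrob_T0642710.2 with miR159, p was 0.0271, 0.000346 and 0.000330 in control replicates 1, 2 and 3. Under drought it was 0.0251, 0.0156 and 0.0381. Control replicate 1 lay among the drought values. The log10 p averaged −2.84 ± 1.10 over the control libraries (SD, n = 3) and −1.61 ± 0.19 over the drought libraries (SD, n = 3). They lay 1.23 apart, and the two-sided exact permutation test gave p = 0.3.

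Part of the spread in p came from the rank. The tables do not state it, but it follows from the deposited p-values. The site was the best miR159 alignment in 3 libraries and the second best in 3. Qrob_T0122500.2 has the same 21-base target sequence and the same alignment values, so the order of the pair is a tie. With the rank set to 1 throughout, p in the 4 libraries of category 2 ran from 0.0126 to 0.0192, against 0.0156 to 0.0381 as deposited. Control and drought log10 p then lay 1.13 apart (exact permutation test, two-sided, p = 0.2).

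Its twin site, at 970 of Qrob_T0122500.2, was listed in 3 libraries. It was in category 1 in control replicate 1, with a deposited p of 0.000497, and in category 0 in drought replicate 2, with 0.000668. In drought replicate 3 it was in category 4 with a deposited p of 0.0327. In these libraries the miR159 site on Qrob_T0642710.2 was in category 2 each time. The categories of the pair therefore differed in every library that listed both, and in no library were both in category 0. Reads from either transcript may have been assigned to the other where their sequences are identical, so the pair is uncertain as separate sites. With the lower category of the pair taken in each library, a choice made after the values were known, the control libraries averaged 0.333 and the drought libraries 1.33 (exact permutation test, two-sided, p = 0.4).

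The remaining miR159 site, at 1118 of Qrob_T0657660.2, was listed in control replicate 2 alone, in category 1 with a deposited p of 0.00726. Its Allen score, a penalty for mismatches that is 0 for a perfect match, was 3.5, like that of the other miR159 sites. Its MFE ratio, the duplex free energy relative to a perfect duplex, was 0.767, against 0.899 for the shared target sequence. Its alignment ranked 16th among those of miR159.

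**Figure D2:**
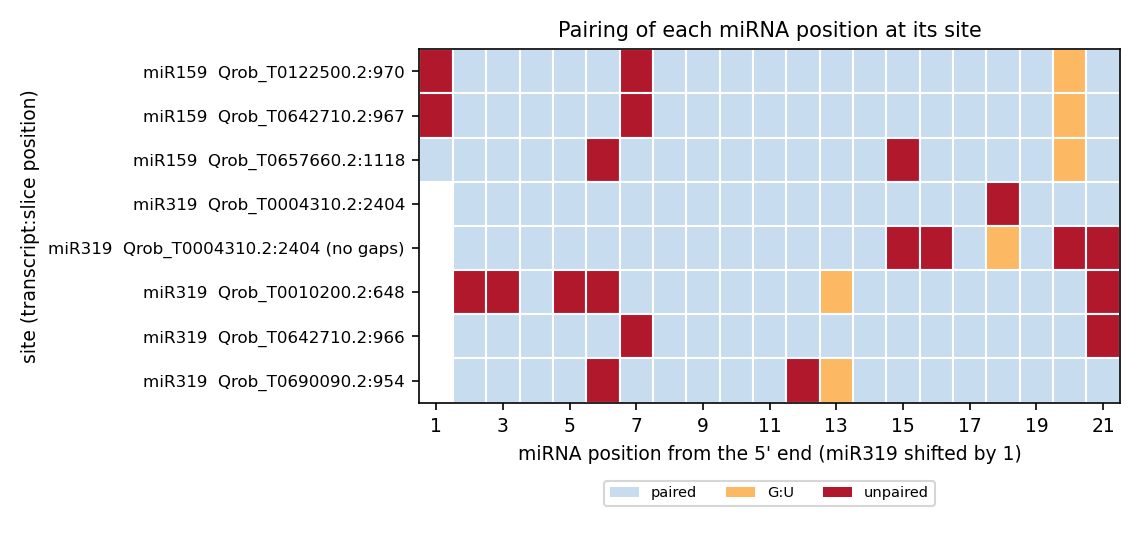
Pairing state of each miRNA position (columns, from the 5′ end, miR319 moved by 1 base) at the 7 sites, and at Qrob_T0004310.2 also without gaps. Both miRNAs leave the same column, position 7 of miR159, unpaired on Qrob_T0642710.2; bulged target bases (10 on Qrob_T0004310.2 and 1 on Qrob_T0690090.2) are not drawn.

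On the stretch that both miRNAs share, the alignments were of similar quality. The miR159 duplex on Qrob_T0642710.2 left positions 1 and 7 unpaired and held 1 G:U pair, for an Allen score of 3.5. The miR319 duplex left positions 6 and 20 unpaired and held no G:U pair, for a score of 3. Position 6 of miR319 is the base beside position 7 of miR159, where the miRNAs differ (U7C), and neither base paired with the target. The miR319 duplex had the lower free energy, −33.4 against −32.8 kcal/mol, but the lower MFE ratio, 0.803 against 0.899, since its perfect duplex is at −41.6 and that of miR159 at −36.5 kcal/mol.

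The degradome evidence on that stretch differed more. The miR319 site at 966 was listed in drought replicate 3 alone, in category 3 with a deposited p of 0.0391, next to the miR159 site in category 2 with 0.0381. By the definitions of these categories, position 966 held fewer reads than the miR159 slice position in that library. Drought replicate 3 had the highest share of transcriptome positions in category 2 of the 6 libraries, 1.92%, with 1.26% as the lowest. That share enters the p of the miR159 call and not that of the miR319 call. The latter depends on the share of category 3, which was not determined. On Qrob_T0122500.2, which holds the same sequence, no library listed a miR319 site.

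The other miR319 sites had weaker alignments. Their Allen scores were 7, 9 and 11 and their MFE ratios 0.692, 0.663 and 0.709. An Allen score of at least 7 was found for 3 of 4 miR319 sites, for 0 of 3 miR159 sites and for 15.9% of the sites of other names. The median Allen score was 3.5 for miR159, 8 for miR319 and 4 for the sites of other names. An MFE ratio under 0.71 was found for the same 3 miR319 sites and for 12.2% of the sites of other names. These values describe single sequences, and sites of one miRNA are not replicates, so no test was made.

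Qrob_T0004310.2 was the only transcript on which miR319 was listed more than once. The site at 2404 was in category 1 in control replicate 2, with a deposited p of 0.0118, and in category 0 in drought replicate 3, with 0.00954. It was not listed in the other 4 libraries. Its alignment ranked 26th and 27th among those of miR319 in these libraries. The deposited duplex pairs bases 1 to 13 of miR319 without a mismatch and then leaves out 10 target bases, which accounts for most of the Allen score of 11. Read without the gap, the same target end leaves 4 bases unpaired (14, 15, 19 and 20) and holds 1 G:U pair, for a score of 4.5. The slice position is the same in both readings.

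**Figure D3:**
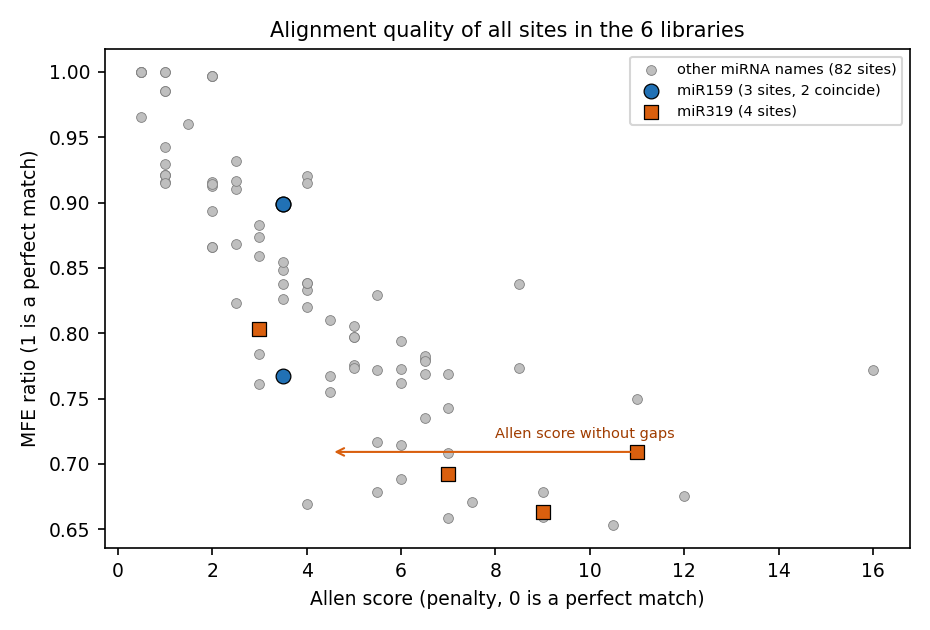
Allen score (horizontal, lower is better) and MFE ratio (vertical, higher is better) of all 89 sites, with the 3 miR159 sites as blue circles and the 4 miR319 sites as orange squares. The miR319 squares other than Qrob_T0642710.2 lie at 7 or more, and the arrow leads from 11 to 4.5, the Allen score of the site on Qrob_T0004310.2 without gaps, at its deposited MFE ratio. The changes without gaps on Qrob_T0010200.2, from 9 to 8.5, and on Qrob_T0690090.2, from 7 to 10, are not drawn.

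The last miR319 sites were listed once each, both in control. At 648 of Qrob_T0010200.2 the call in control replicate 2 was in category 0 but had a deposited p of 0.0330, because the alignment ranked 97th. It left bases 1, 2, 4, 5 and 20 of miR319 unpaired. At 954 of Qrob_T0690090.2 the call in control replicate 1 was in category 1 with a deposited p of 0.0216 at rank 44. There base 11 of miR319, next to the slice position, was unpaired, and without gaps the Allen score rose from 7 to 10.

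Each miRNA was also scored without gaps on the other's sites, over the 20 target bases they share and leaving out base 1 of miR159. On Qrob_T0642710.2 and Qrob_T0122500.2 miR159 scored 2.5 and miR319 3, and on Qrob_T0657660.2 they scored 3.5 and 6. On Qrob_T0004310.2 the order turned, to 5.5 for miR159 and 4.5 for miR319. It was 9.5 and 8.5 on Qrob_T0010200.2, and 12 and 10 on Qrob_T0690090.2. With its unpaired base 1 counted, miR159 scored 3.5 on Qrob_T0642710.2 and Qrob_T0122500.2, above the 3 of miR319, so on these transcripts the order rests on that base.

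Per library, miR159 had 2, 2 and 1 sites in the control libraries, by replicate number, and 1, 2 and 2 under drought. Each condition averaged 1.67 ± 0.577 sites (SD, n = 3; exact permutation test, two-sided, p = 1). miR319 had 1, 2 and 0 sites in control and 0, 0 and 2 under drought. It averaged 1.00 ± 1.00 and 0.667 ± 1.15 sites (SD, n = 3), a drought minus control difference of −0.333 that was smaller than the SD of either condition (exact permutation test, two-sided, p = 1). Over all 27 miRNA names the adjusted p was 1 for both. No name had an unadjusted or adjusted p under 0.05, and 11.1% were at the smallest possible p of 0.1.

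miR159 had more sites than miR319 in 4 of 6 libraries and as many in 2. The mean difference of 0.833 sites ± 0.753 (SD, n = 6) did not pass (two-sided exact sign-flip permutation test over libraries, p = 0.125, which is the smallest p that these values, with 2 of them at 0, can give). With sites of the same target sequence counted once, the difference was 0.333 sites (the same exact test, p = 0.625).

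Of the 7 sites, 3 were listed in both conditions, as were 40.4% of all sites, and 4 in a single library, as were 47.2% of all sites. None separated the conditions completely, with every library of one and no library of the other, as 4.49% of all sites did. Fisher's exact test of presence gave p = 1 for each of the 7 sites, also after adjustment over all 89. Over the 89 sites, 0% passed at 0.05 with adjustment and 0% without it, since with 3 against 3 libraries this test cannot go below 0.1.

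**Figure D4:**
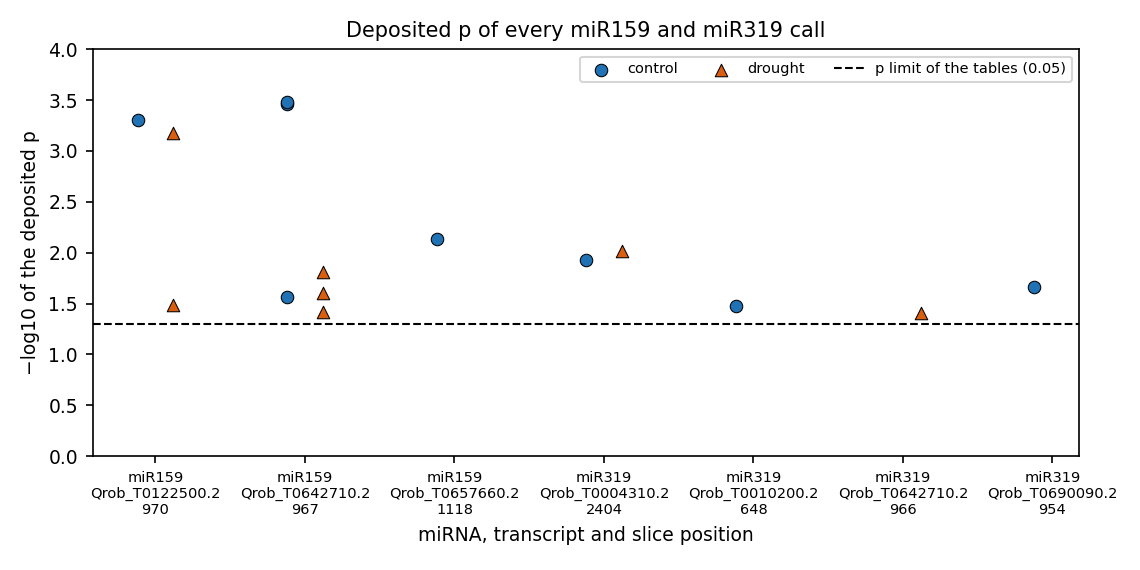
Deposited p-values as −log10 (vertical, higher is stronger) for the 15 calls by site, with control libraries as blue circles, drought libraries as orange triangles and the limit of 0.05 as a dashed line. The 4 highest points are miR159 calls, and the 5 miR319 calls lie between 1.41 and 2.02.

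The strongest p-values belonged to miR159. A p of at most 0.001 was reached at 2 of 3 miR159 sites, at 0 of 4 miR319 sites and at 17.1% of the sites of other names. These 2 miR159 sites are the pair with the same target sequence, which is uncertain as separate sites. A target sequence found on another transcript was held by 29.3% of the sites of other names. A p of at most 0.01 was reached at all 3 miR159 sites and at 1 of 4 miR319 sites, the one on Qrob_T0004310.2, against 50.0% of the sites of other names. By category the miRNAs were closer. Category 0 made up 3 of 10 miR159 calls and 2 of 5 miR319 calls, against 46.8% of all calls.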

How the data were processed

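Degradome libraries were made from combined taproot and lateral root RNA of 3 control and 3 drought replicates. The deposited tables, 1 per library, were written by CleaveLand4 4.5 (file headers), which the authors ran against the longest transcripts of the PM1N assembly, with a p-value limit of 0.05 and categories 0 to 4 allowed. The submitters' processing notes also name cutadapt, FastQC, HISAT2 and Bowtie. The deposited p-value carries no correction over miRNAs. The deposited MFE ratio is a ratio of free energies, and the deposited Allen score is a mismatch penalty that doubles the weight of bases 2 to 13. Sites with a p above the limit are not listed, so a blank is not proof of no cleavage. The tables hold no reads, so depth could not be read from them and no counting interval was given.

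Members and lists were chosen with earlier results of these data known, and every member site was named. Ranks were derived from the deposited p-values, where 1 − p is (1 − f) to the power of the rank, f being the share of positions in the category, taken as the largest step of which all −ln(1 − p) of a library and category were whole multiples (tolerance 0.0001 relative to the multiple). They were used where a category held at least 5 calls, and not for category 3, whose steps varied widely. Allen scores without gaps were computed from the deposited letters, with unpaired bases at 1, G:U at 0.5 and both doubled in bases 2 to 13. The same weights applied to the deposited structures gave the deposited score for all 15 calls of the members and for 221 of 231 in all. Conditions were compared by exact permutation tests, presence by Fisher's exact test over all 89 sites, with Benjamini-Hochberg adjustment. p-values measure only the spread between these replicates. The tests were tested on simulated data. None of the 6 transcripts matched the RefSeq gene table given. Alternatives were a p limit of 0.01, categories 0 to 2, an Allen score of at most 4, merged target sequences, rank 1, single libraries left out and a replicate block. Python 3.11.15 was used with scipy 1.17.1, numpy 2.4.6, pandas 2.3.3 and, for plots, matplotlib 3.10.9.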

Additional observations from a re-analysis of the deposited data

How the results depend on the processing

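The small differences between conditions in the number of sites depended on the setting. For miR159, 0 as reported, the difference was −1 with a p limit of 0.01 and −0.333 with categories 0 to 2 or with merged target sequences, and between −0.333 and 0.333 with single libraries left out. For miR319, −0.333 as reported, it was 0.333 with a p limit of 0.01 or with Allen scores limited to 4, and with single libraries left out it lay between −1 (drought replicate 3 omitted) and 0.167 (control replicate 2 omitted). The surplus of miR159 over miR319 sites fell from 0.833 to 0.333 with merged target sequences and lay between 0.6 and 1 without one library. With Allen scores limited to 4 it was 1.5, a value set by the limit itself, which removes 3 of 4 miR319 sites and no miR159 site, so no test is given for it. The other changes followed from which calls or libraries each setting left out. Why those calls differed between libraries was not tested. The category of the miR159 site on Qrob_T0642710.2 kept its direction in the alternatives run, with differences from 1 to 2 without one library. In these omissions the direction was fixed, since all drought libraries were in category 2 and no control library was above it. The difference in its log10 p ran from 0.905 to 1.86 (control replicate 1 omitted). Read without gaps, 2 of 4 miR319 sites in place of 3 had an Allen score of at least 7. The counts of sites and of miRNA names that differed were 0 in each setting, which says nothing about stability, since no test of 3 against 3 libraries can go below 0.1.

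Replicate numbers are shared by the conditions, but nothing says that they mark a common batch. No pairing was assumed, because the methods of the study name no block. Presence of sites deviated from the condition means with correlations of −0.106, −0.0456 and −0.141 for libraries of the same number. For libraries of different numbers they ran from −0.0284 to 0.142. As deviations from means of 3 libraries, these values cannot tell whether a batch was shared. With a replicate block the differences were 0 for miR159 sites, −0.333 for miR319 sites, 1.33 for the category and 1.23 for log10 p (exact sign-flip tests over 3 pairs, p = 1, 1, 0.5 and 0.5, with 0.25 as the smallest p without ties). Depth per library, which the tables do not give, and the 3 libraries per condition limit all of these comparisons.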
